A study of Rattus norvegicus with 12 samples.

Results

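Interferon response and antigen processing genes are transcribed when a cell senses virus-like nucleic acid or receives interferon. The list used here holds 49 such genes, named by their function and matched to the array by the older or current gene symbol. Of these, 43 were measured, each by 1 probe set, among 14506 genes with a probe set of a single symbol. Gbp4, Usp18x, Parp14, Xaf1, Nlrc5 and Ifnar2 matched no such probe set and are not analysed here. Usp18 was measured under that symbol and belongs to a further list, of sensing and signalling genes. Ddx58, the gene of the sensor RIG-I, is named Rig1 on the platform and was matched through its Entrez identifier.

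The cells were neonatal cardiac myocytes of Sprague Dawley rats, labelled as over 90% myocytes, and all had been grown with bromodeoxyuridine, an inhibitor of fibroblast growth. In each of 3 experiments, cells were transfected with a non-silencing control siRNA (NS) or with one against p300 (p300kd), the lysine acetyltransferase encoded by Ep300, and all were then kept in serum-free medium for 2 days. Cells of both kinds were collected at 0 h and after 8 h in 1 µM doxorubicin (Dox), an anthracycline that poisons topoisomerase II, which gave 4 groups of 3 arrays. The 0 h cells were the only ones without the drug, so the drug and the 8 h in culture cannot be told apart, and all cells had been transfected, so an untransfected level is not part of the comparisons.

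Type I interferons bind a receptor built from the IFNAR chains, which activates transcription factors of the STAT family. A complex that holds STAT2 and IRF9 binds interferon-stimulated response elements. The genes it switches on encode RNA sensors such as RIG-I, effectors that block viral replication such as the MX, OAS and IFIT proteins, and the transport and loading machinery that places peptides on MHC class I. Many cells, cardiac myocytes among them, keep a basal level of these transcripts, and p300 is one of the acetyltransferases that interferon-responsive transcription factors are known to bind.

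The promoters of the members were searched for the letters bound by these factors. RefSeq promoters of build GRCr8, from 250 bases before to 50 bases after the start of the gene, were found for 34 of the 43 measured members. The letters GAAA written again after 2 bases of any kind, the repeat at the core of the response element, lay on either strand in 23 of 34 (67.6%), against 3.77% of all 27457 promoters of the same length. The letters TTC and GAA with 3 bases of any kind between them, a STAT dimer site (GAS), read the same on both strands and lay in 9 of 34 (26.5%), against 8.68% of all. Both occurred in 6 members and neither in 8, and the letters of the 2 motifs may overlap in a promoter. The stretches of 150 to 209 bases before the start are shown for 11 members on which the results turn, in lower case with each matching stretch in capitals. The first 6 hold the repeat, with a GAS match also in Oas1a, an oligoadenylate synthetase.
Oas1a (chr12:41330257-41330465, forward strand): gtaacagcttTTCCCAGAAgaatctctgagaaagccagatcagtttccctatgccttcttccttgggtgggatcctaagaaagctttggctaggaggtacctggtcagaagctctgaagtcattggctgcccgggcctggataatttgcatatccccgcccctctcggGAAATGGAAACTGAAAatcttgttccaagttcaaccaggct
Oasl2 (chr12:47383186-47383346, reverse strand): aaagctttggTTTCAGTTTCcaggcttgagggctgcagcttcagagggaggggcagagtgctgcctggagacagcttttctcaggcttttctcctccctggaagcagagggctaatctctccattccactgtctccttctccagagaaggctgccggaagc
Irf7 (chr1:205800024-205800173, reverse strand): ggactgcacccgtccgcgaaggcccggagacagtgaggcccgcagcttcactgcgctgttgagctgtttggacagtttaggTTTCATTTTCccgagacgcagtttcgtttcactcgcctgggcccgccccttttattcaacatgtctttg
Gbp2 (chr2:234005577-234005726, forward strand): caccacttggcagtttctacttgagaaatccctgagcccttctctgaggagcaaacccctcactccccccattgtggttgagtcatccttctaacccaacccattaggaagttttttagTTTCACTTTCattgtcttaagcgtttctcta
Tap1 (chr20:4668544-4668693, reverse strand): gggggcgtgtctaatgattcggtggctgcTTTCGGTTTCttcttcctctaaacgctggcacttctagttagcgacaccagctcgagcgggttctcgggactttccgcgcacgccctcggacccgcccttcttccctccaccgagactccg
Tapbp (chr20:4967878-4968027, reverse strand): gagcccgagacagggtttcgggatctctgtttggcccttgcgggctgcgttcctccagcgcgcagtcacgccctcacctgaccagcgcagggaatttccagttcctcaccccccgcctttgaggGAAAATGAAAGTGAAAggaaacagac
The interferon regulatory factor genes Irf8 and Irf9 held the GAS letters without the repeat.
Irf8 (chr19:65699094-65699283, forward strand): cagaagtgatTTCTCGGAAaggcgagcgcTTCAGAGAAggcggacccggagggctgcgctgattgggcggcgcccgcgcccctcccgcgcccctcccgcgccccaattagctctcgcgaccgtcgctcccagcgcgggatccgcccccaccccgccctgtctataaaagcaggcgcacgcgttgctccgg
Irf9 (chr15:33065686-33065835, forward strand): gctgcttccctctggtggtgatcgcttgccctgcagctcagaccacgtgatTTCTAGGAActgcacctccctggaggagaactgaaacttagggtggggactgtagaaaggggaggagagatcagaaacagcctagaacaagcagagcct
Neither set of letters was found in the window of the receptor gene Ifnar1 or of Herc6 and Cmpk2. The search took only repeats with exactly 2 bases between them. The Cmpk2 stretch holds GAAA repeated on the other strand with a shorter gap, which was not counted.
Herc6 (chr4:88896994-88897143, reverse strand): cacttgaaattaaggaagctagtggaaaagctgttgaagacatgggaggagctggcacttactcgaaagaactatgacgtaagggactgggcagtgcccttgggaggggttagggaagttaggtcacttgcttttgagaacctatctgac
Cmpk2 (chr6:48802700-48802849, forward strand): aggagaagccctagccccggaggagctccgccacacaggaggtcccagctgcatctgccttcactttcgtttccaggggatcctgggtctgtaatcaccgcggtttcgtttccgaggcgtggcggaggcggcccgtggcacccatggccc
Ifnar1 (chr11:44211619-44211768, forward strand): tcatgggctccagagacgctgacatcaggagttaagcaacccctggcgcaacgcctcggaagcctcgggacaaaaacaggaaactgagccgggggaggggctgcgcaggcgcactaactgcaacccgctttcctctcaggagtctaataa
A match is a run of letters and not a measured binding site. No binding was measured in these cells. The 11 members without the repeat and the 23 with it had medians of the p300 siRNA difference at 0 h of 0.19 and 0.19 on the log2 scale. Their medians of the Dox difference were 0.16 and 0.22 in NS cells and −0.12 and 0.05 in p300kd cells, as a description with no test.

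Values below are log2 of the deposited intensity, a difference of 1 is a 2-fold change, and values of a group are given in the order of experiments 1, 2 and 3. A gene passed when its adjusted p (limma, Benjamini-Hochberg over all genes) was under 0.05. Ep300, the target of the siRNA, fell to 51.9% of the NS level at 0 h (adjusted p = 0.0404) and to 52.9% at 8 h (adjusted p = 0.0271). Markers of cardiac myocytes had a mean log2 intensity of 12.85 to 13.16 over the 12 arrays. Those of fibroblasts lay at 10.43 to 10.81, of macrophages at 8.10 to 8.73, of endothelium at 7.75 to 8.05, and of lymphocytes and NK cells at 6.08 to 6.24. Fibroblast markers ran from Fap (6.13 to 6.80) to Col1a1 (13.40 to 13.83), and macrophage markers from Cd163 (6.49 to 7.09) to Lyz2 (11.16 to 12.35). Since intensity differs between probe sets, these means do not rank cell content. In these bulk samples, fewer cells of a type and less RNA per cell cannot be told apart.

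The experiments differed in the level of the interferon genes. Of the 43 members, 37 were lowest in experiment 1 and 38 were highest in experiment 2, averaged over the 4 groups, against 45.3% and 31.9% of all genes. The median span between the highest and the lowest experiment was 0.65 for the members and 0.14 for all genes. The span was over 0.5 for 26 of 43 members (60.5%), against 3.92% of all genes. The largest spans were in Mx1, a dynamin-like GTPase that blocks viral replication (1.45, or 2.74-fold), Rsad2, which encodes the antiviral enzyme viperin (1.42), the receptor transporter gene Rtp4 (1.33) and Ifit1 (1.23), whose product binds foreign RNA. The smallest were in Eif2ak2, the gene of the kinase PKR (0.09), Irf8 (0.11), Ifnar1 (0.11) and B2m, the light chain of MHC class I (0.12). The direction was the same in each group: experiment 2 exceeded experiment 1 by a median of 0.48 in NS and 0.50 in p300kd cells at 0 h, and by 0.65 and 0.77 at 8 h. Isg20, Ifit2 and Samd9l were the 3 members highest in experiment 1. Over all 4 groups, macrophage markers had a mean of 8.42, 8.51 and 8.30 in experiments 1, 2 and 3, and myocyte markers 12.93, 13.04 and 13.13. The part of cell content in these spans was not tested.

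**Figure D1:**
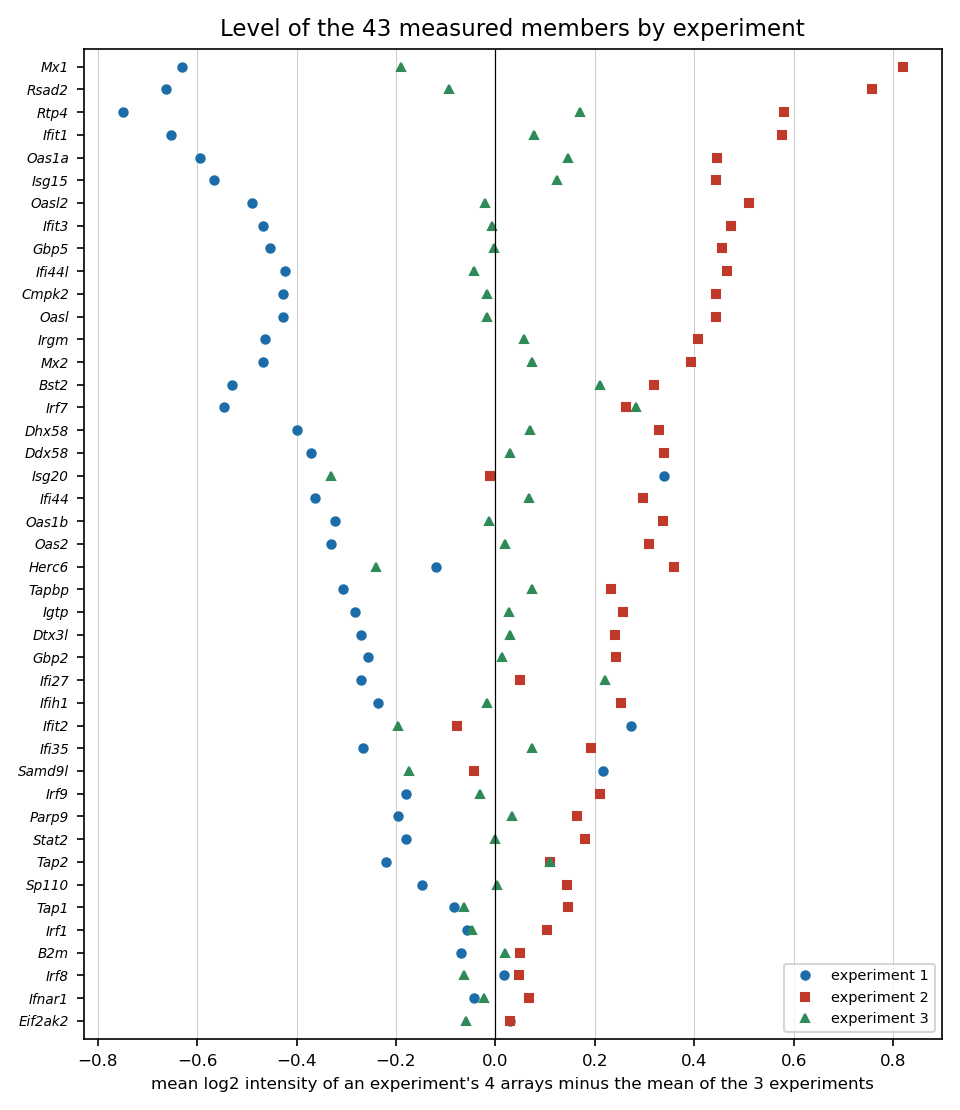
Mean log2 intensity of each measured member in experiments 1, 2 and 3 (4 arrays each), minus the mean of the 3 experiments. Experiment 1 is lowest for 37 of 43 members and experiment 2 highest for 38, with spans from 0.09 in Eif2ak2 to 1.45 in Mx1.

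Since arrays of 1 experiment deviated together, each comparison was also fitted with the experiment as a block, which compares cells within an experiment. Its count of members that passed is given for each comparison. For single genes, further lists and markers its result is given in places only, so its absence does not mean that the block changed nothing.

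After 8 h in Dox, the members did not move as 1 group. In NS cells 4 rose (Gbp2, Tap1, Herc6 and Samd9l) and 2 fell (Irf9 and Ifnar1), where 11.1% of all genes rose and 16.4% fell. In p300kd cells 3 rose (Gbp2, Tap1 and Irf8) and 2 fell (Irf9 and Ifnar1), where 13.9% of all genes rose and 17.5% fell. With the experiment as a block, 18 rose and 7 fell in NS cells (all genes 21.6% and 21.9%), and 8 rose and 14 fell in p300kd cells (all genes 22.9% and 22.8%). The median of the members was 0.16 in NS and −0.05 in p300kd cells, against 0.04 for all genes in both. Without experiment 1, 10 members passed in NS cells (27.1% of all genes) and 8 in p300kd cells (32.2% of all genes). Without experiment 3, 3 members passed in p300kd cells, where the share of all genes was 16.3% in place of 31.4%. Centring the arrays on their medians shifted the median over all genes from 0.04 to 0.14, and then 11 members rose and 2 fell in NS cells (all genes 26.2% and 12.6%) and 4 rose and 2 fell in p300kd cells (all genes 29.9% and 13.7%).

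Among receptors and transcription factors, the gene of the DNA-binding subunit of the interferon-stimulated complex fell most. Irf9 read 10.27, 10.68 and 10.60 in NS cells at 0 h, and 9.41, 9.92 and 9.42 after 8 h in Dox. In p300kd cells it read 10.51, 10.83 and 10.78 at 0 h and 9.54, 9.85 and 9.51 at 8 h. All 6 arrays with Dox lay below all 6 without it. Irf9 fell by 0.93 (SE 0.158, 1.91-fold, adjusted p = 8.46e-04) in NS and by 1.07 (2.10-fold, adjusted p = 2.63e-04) in p300kd cells.

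Ifnar1, a chain of the type I interferon receptor, fell as well. It read 10.49, 10.65 and 10.67 in NS cells at 0 h and 9.93, 10.14 and 10.01 at 8 h. The p300kd cells had 10.42, 10.49 and 10.32 at 0 h and 9.93, 9.94 and 9.85 at 8 h, again with no overlap between times. The fall was 1.50-fold in NS (adjusted p = 3.04e-04) and 1.42-fold in p300kd cells (adjusted p = 6.80e-04). The calls of Irf9 and Ifnar1 held under all 28 alternatives tried, in both kinds of cell.

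The other members of this role gave smaller values. Irf8, a factor best known from macrophages and dendritic cells, read 7.47, 7.35 and 7.23 in p300kd cells at 0 h and 7.55, 7.79 and 7.60 at 8 h. It rose there by 0.29 on the log2 scale (SE 0.0879, adjusted p = 0.0220). In NS cells it read 7.57, 7.50 and 7.59 at 0 h and 7.79, 7.87 and 7.67 at 8 h, a difference of 0.22 with an adjusted p of 0.0770. The rise in p300kd cells did not pass without experiment 2 or 3, without the p300kd arrays of experiment 2 at either time or that of experiment 3 at 0 h, or when only the groups compared were fitted (adjusted p up to 0.201, difference 0.22 to 0.40 over the alternatives). Irf7, the factor that amplifies type I interferon production, read 11.04, 11.80 and 11.85 in NS cells at 0 h and 11.66, 12.36 and 12.29 at 8 h. Its difference was 0.54 in NS cells (adjusted p = 0.228; 3.28e-06 with the block) and 0.19 in p300kd cells (adjusted p = 0.677; 0.0124 with the block), positive in every experiment. Stat2, Irf1 and Ifi35 differed by 0.09 to 0.16 in NS and by −0.15 to 0.12 in p300kd cells. None of these 3 passed, except Stat2 in p300kd cells with the block (adjusted p = 0.0460).

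The RNA sensors did not pass in either kind of cell. Ddx58, Ifih1 (the sensor MDA5) and Dhx58 (LGP2) differed by −0.08, 0.14 and 0.30 in NS cells, and by −0.35, −0.16 and 0.06 in p300kd cells. With the block, Dhx58 passed in NS cells (adjusted p = 0.0338) and Ddx58 in p300kd cells (adjusted p = 3.93e-04).

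Of 21 antiviral effectors, 1 rose and 0 fell in NS cells without the block (all genes 11.1% and 16.4%). In p300kd cells 0 passed (all genes 13.9% and 17.5%). Samd9l, an interferon-induced inhibitor of translation, read 10.13, 9.89 and 9.87 in NS cells at 0 h and 10.68, 10.81 and 10.28 at 8 h, and rose by 0.63 (adjusted p = 0.0192). In p300kd cells it read 10.43, 10.13 and 9.94 at 0 h and 10.83, 10.20 and 10.43 at 8 h, where the groups overlap and the difference was 0.32 (adjusted p = 0.198; 0.0301 with the block). The rise in NS cells did not pass without experiment 2, without the NS arrays of experiment 2 or 3 at 0 h, or without those of experiment 1 or 2 at 8 h (adjusted p up to 0.208).

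With the block, 9 of 21 antiviral effectors rose and 4 fell in NS cells (all genes 21.6% and 21.9%). In p300kd cells 3 of them rose and 8 fell (all genes 22.9% and 22.8%). Ifit1 had the largest difference of them in both kinds of cell, and it was negative. Ifit1 read 8.67, 9.86 and 9.66 in NS cells at 0 h and 7.96, 9.35 and 8.26 at 8 h, lower in every experiment although the groups overlap. The p300kd cells had 9.09, 10.15 and 9.88 at 0 h and 7.89, 9.17 and 8.73 at 8 h. Its difference was −0.87 in NS (adjusted p = 0.149; 5.32e-05 with the block) and −1.11 in p300kd cells (adjusted p = 0.0645; 4.58e-06 with the block). Ifit2 and Ifit3, which sit beside Ifit1 in the genome and act with it, gave other values. Ifit2 read 8.72, 8.50 and 8.52 in NS cells at 0 h and 9.07, 9.16 and 8.59 at 8 h, a difference of 0.36 that passed with the block (adjusted p = 0.0470). Ifit3 read 7.55, 8.21 and 7.89 at 0 h and 7.25, 8.73 and 7.79 at 8 h, with no common direction over the experiments. In p300kd cells Ifit2 differed by 0.11, −0.31 and 0.28 in the 3 experiments and Ifit3 by −0.40, −0.21 and −0.08, and neither passed with the block (adjusted p = 0.881 and 0.154).

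The OAS family makes the messenger that activates RNase L. Its 5 genes among the members were divided in NS cells. In p300kd cells all 5 were lower in every experiment and fell with the block. Other measured genes of the family belong to a further list and are not counted here. Oasl, a member without that enzyme activity, read 9.65, 10.37 and 10.20 in p300kd cells at 0 h and 8.78, 9.87 and 9.22 at 8 h. In NS cells it read 9.48, 10.21 and 10.03 at 0 h and 9.14, 10.06 and 9.24 at 8 h. The difference was −0.79 (adjusted p = 0.0685; 2.89e-05 with the block) and −0.43 (adjusted p = 0.331; 0.00482 with the block). Oas1b gave −0.59 and −0.44 and passed in both with the block. Oas1a, Oas2 and Oasl2 differed by 0.03 to 0.11 in NS cells without passing, and by −0.32 to −0.21 in p300kd cells, where each passed with the block. Rtp4 read 8.63, 9.73 and 9.46 in p300kd cells at 0 h and 7.73, 9.03 and 8.85 at 8 h, a difference of −0.74 (adjusted p = 0.246; 5.74e-05 with the block), and −0.35 in NS cells (0.0170 with the block).

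Other effectors were higher after the drug. Isg20, an RNA exonuclease, read 9.67, 9.59 and 9.38 in NS cells at 0 h and 10.56, 10.34 and 9.69 at 8 h. In p300kd cells it read 9.78, 9.62 and 9.31 at 0 h and 10.78, 9.85 and 9.74 at 8 h. The differences were 0.65 (adjusted p = 0.0837; 0.00113 with the block) and 0.56 (adjusted p = 0.126; 0.00322 with the block). Cmpk2, a mitochondrial nucleotide kinase that lies beside Rsad2, read 9.05, 9.90 and 9.67 in NS cells at 0 h and 9.64, 10.52 and 9.75 at 8 h, a difference of 0.43 (0.00130 with the block). Bst2, Ifi44l, Mx1, Eif2ak2 and Ifi27 also passed upwards in NS cells with the block, by 0.24 to 0.48, and of these Ifi27 in p300kd cells. Mx1 read 8.61, 10.03 and 9.32 in NS cells at 0 h and 9.31, 10.86 and 9.23 at 8 h, higher in 2 experiments and lower in experiment 3. Rsad2 read 8.41, 9.68 and 9.20 at 0 h and 8.75, 10.40 and 8.94 at 8 h, which is the same pattern, and passed in neither fit.

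Among genes of ubiquitin-like modification, Herc6, the ligase that attaches ISG15 to proteins in rodents, rose in NS cells. It read 8.63, 8.93 and 8.55 at 0 h and 9.27, 10.21 and 8.98 at 8 h, a rise of 0.78 (SE 0.251, 1.72-fold, adjusted p = 0.0352). In p300kd cells it read 9.42, 9.82 and 9.29 at 0 h and 9.65, 9.93 and 9.66 at 8 h, a difference of 0.23 (adjusted p = 0.511; 0.165 with the block). The rise in NS cells did not pass without experiment 1 or 3, without the NS array of experiment 1 or 3 at 0 h, without that of experiment 2 at 8 h, or when only the groups compared were fitted (adjusted p up to 0.104). It was 0.42 without the NS array of experiment 2 at 8 h, the highest of the 12. Isg15, the ubiquitin-like protein itself, read 9.48, 10.57 and 10.30 in NS cells at 0 h and 9.96, 10.92 and 10.30 at 8 h, a difference of 0.28 (adjusted p = 0.599; 0.0192 with the block). Parp9 and Dtx3l, whose products form an ADP-ribosylating ubiquitin ligase, differed by 0.01 and 0.10 in NS and by −0.13 and −0.10 in p300kd cells, and passed in neither fit.

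Guanylate-binding proteins, which attack the membranes of intracellular pathogens, had the highest positive differences in NS cells. Gbp2 read 9.91, 10.39 and 10.28 in NS cells at 0 h and 10.84, 11.43 and 10.85 at 8 h. The p300kd cells read 9.92, 10.44 and 10.27 at 0 h and 10.65, 11.05 and 11.01 at 8 h. The 6 arrays with Dox all lay above the 6 without. The rise was 1.80-fold in NS (adjusted p = 0.00470) and 1.62-fold in p300kd cells (adjusted p = 0.0130). The call in p300kd cells was lost without experiment 3, or without the p300kd array of experiment 1 at 0 h or of experiment 2 or 3 at 8 h (adjusted p up to 0.112), and that in NS cells under none of 28 alternatives.

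Gbp5 gave the same difference in NS cells with a wider spread between experiments. It read 8.77, 9.68 and 9.43 in NS cells at 0 h and 9.72, 10.78 and 9.93 at 8 h. In p300kd cells it read 8.96, 9.74 and 9.34 at 0 h and 9.45, 10.32 and 9.97 at 8 h. The differences were 0.85 (adjusted p = 0.0607; 5.41e-06 with the block) and 0.56 (adjusted p = 0.194; 1.84e-04 with the block). The immunity-related GTPase genes Igtp and Irgm did not rise. Igtp differed by −0.34 and −0.30 and passed in both kinds of cell with the block, and Irgm by −0.01 and −0.28, passing in p300kd cells with the block (adjusted p = 0.0223).

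Of the 4 antigen processing members, Tap1, a subunit of the peptide transporter of the endoplasmic reticulum, rose in both kinds of cell. It read 10.01, 10.49 and 10.08 in NS cells at 0 h and 10.96, 11.14 and 10.99 at 8 h. In p300kd cells it read 10.27, 10.44 and 10.30 at 0 h and 11.05, 11.13 and 10.97 at 8 h. No array with Dox overlapped one without. Tap1 rose 1.79-fold in NS (SE 0.115 on the log2 scale, adjusted p = 1.79e-04) and 1.64-fold in p300kd cells (adjusted p = 4.73e-04), and passed under all 28 alternatives in both. Tap2, the other subunit, differed by 0.04 in NS and −0.05 in p300kd cells and passed in neither fit. Tapbp, the tapasin gene, read 10.13, 10.53 and 10.39 in NS cells at 0 h and 10.52, 10.96 and 10.82 at 8 h, a difference of 0.42 that passed with the block (adjusted p = 2.35e-04). In p300kd cells its difference was 0.10 (0.273 with the block). B2m differed by 0.05 in both and did not pass.

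**Figure D2:**
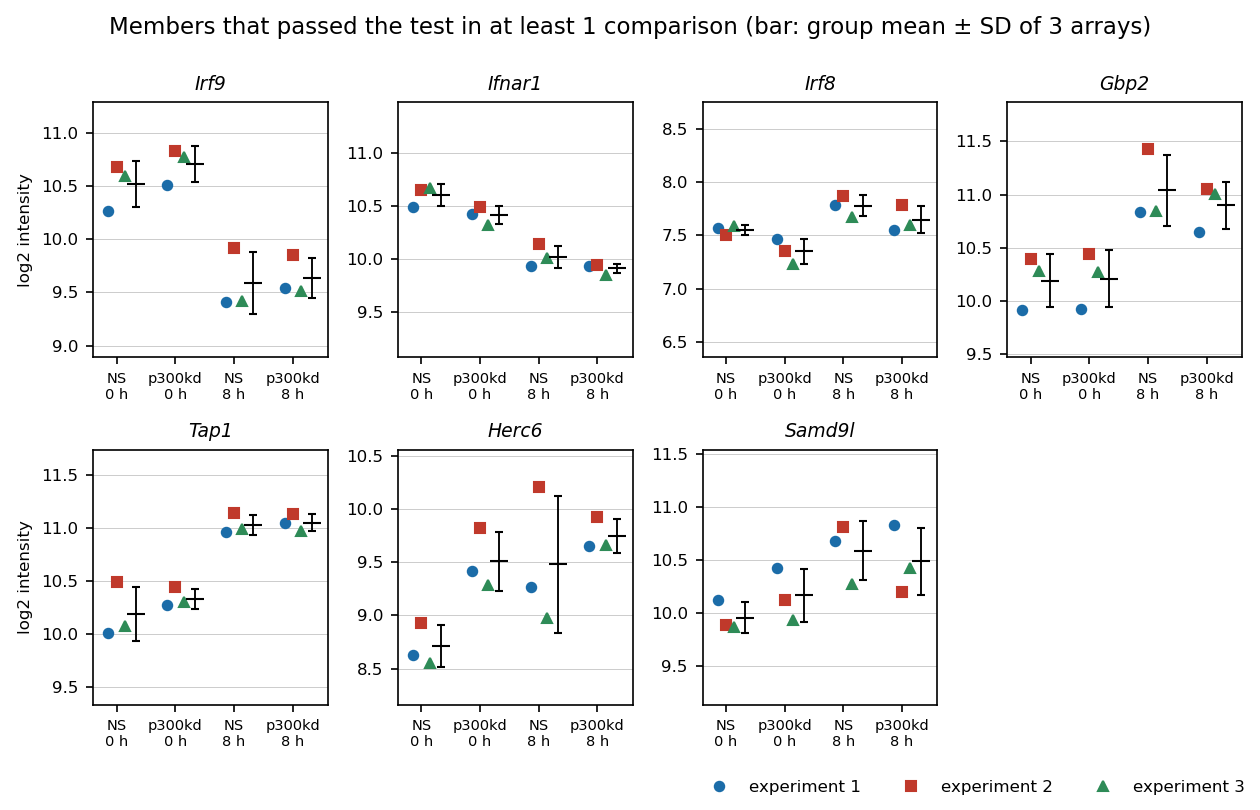
Log2 intensity of the 7 members that passed in at least 1 comparison, by group (NS and p300kd cells at 0 h and after 8 h in Dox), with a point per array, its shape giving the experiment, and a bar for the group mean ± SD (n = 3). Irf9 and Ifnar1 lie lower and Gbp2 and Tap1 higher at 8 h in both kinds of cell with no overlap, while Herc6 and Samd9l overlap between times in p300kd cells.

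Within the experiments, 19 members were higher after Dox in all 3 in NS cells and 7 were lower (all genes 36.0% and 28.7%). In p300kd cells 11 were higher and 17 lower (all genes 36.8% and 29.4%). The medians of the members in experiments 1, 2 and 3 were 0.19, 0.36 and −0.01 in NS cells and −0.20, 0.02 and −0.01 in p300kd cells.

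The p300 siRNA difference at 0 h compares p300kd with NS cells before the drug. Less p300 and any other difference between the siRNAs cannot be told apart here. The members were mostly higher in p300kd cells, by little: 40 of 43 lay above 0, with a median of 0.21 against 0.00 for all genes, and the span was −0.20 to 0.81. None passed without the block, where 0.0207% of all genes passed. The unadjusted p was under 0.05 for 3 members without the block and 25 with it, and for 6.95% and 15.3% of all genes. With the block, 9 rose (Herc6, Oasl2, Isg15, Cmpk2, Rtp4, Tapbp, Oas1a, Ddx58 and Irf7) and 0 fell, where 0.696% of all genes rose. Within the experiments, 30 members were higher in all 3 and 2, Ifnar1 and Irf8, were lower in all 3, against 19.3% and 18.1% of all genes. The median was 0.28, 0.24 and 0.16 in experiments 1, 2 and 3. Leaving out experiment 1, 2 or 3 with the block left 5, 2 and 3 members that rose. The 0.696% belongs to the fit on all arrays, and the shares of all genes in the reduced fits are not given here.

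By role, the antiviral effectors had a median of 0.28 and the RNA sensors of 0.27, and all 3 sensors were higher in each experiment. The 4 genes of ubiquitin-like modification and ADP-ribosylation had a median of 0.37, the receptors and transcription factors of 0.18, the antigen processing genes of 0.10 and the GTPases of 0.06. Herc6, with the values given above, was 1.75-fold higher in p300kd cells at 0 h, by 0.79, 0.89 and 0.74 in the 3 experiments, and the groups did not overlap (adjusted p = 0.406; 0.00559 with the block). Oasl2 read 9.88, 10.91 and 10.53 in NS and 10.45, 11.38 and 11.03 in p300kd cells, higher by 0.57, 0.47 and 0.50 (adjusted p = 0.897; 0.00775 with the block). Isg15 had 10.05, 10.96 and 10.85 in p300kd cells, higher by 0.56, 0.39 and 0.55 (0.00757 with the block). In both genes the groups overlap, since experiment 1 lay lower in either kind of cell, while the difference within an experiment varied less.

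Cmpk2 read 9.62, 10.40 and 10.00 in p300kd cells and was higher by 0.58, 0.51 and 0.34 (0.0119 with the block). Rtp4 read 8.05, 9.38 and 9.08 in NS cells at 0 h and was higher by 0.58, 0.35 and 0.38 in p300kd cells (0.0493 with the block). Rsad2 read 8.94, 10.37 and 9.49 in p300kd cells, higher by 0.53, 0.69 and 0.29, and missed the threshold (0.0508 with the block). Mx1 read 9.18, 10.37 and 9.66 in p300kd cells and was higher by 0.57, 0.34 and 0.34 (0.152 with the block). The other 4 that passed with the block were smaller: Tapbp by 0.32, Oas1a and Ddx58 by 0.31 each, and Irf7 by 0.27. Differences were within 0.02 of 0 for Gbp2, Isg20, B2m and Irf1. Irf8 and Ifnar1 were lower, by 0.20 and 0.19, and did not pass (adjusted p = 0.694 and 0.696; 0.269 and 0.168 with the block).

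Macrophage markers went the other way. Their mean was 8.50, 8.66 and 8.45 in NS and 8.35, 8.30 and 8.10 in p300kd cells at 0 h, and all 13 had a difference below 0. With the block 5 fell (Mrc1, Itgam, Csf1r, Cd68 and C1qa), where 289 of all 14506 genes fell. Of 10 fibroblast markers, 3 fell with the block (Postn, Dcn and Col3a1). Myocyte markers passed in no case at 0 h. The part of cell content in the p300 siRNA differences was not tested.

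**Figure D3:**
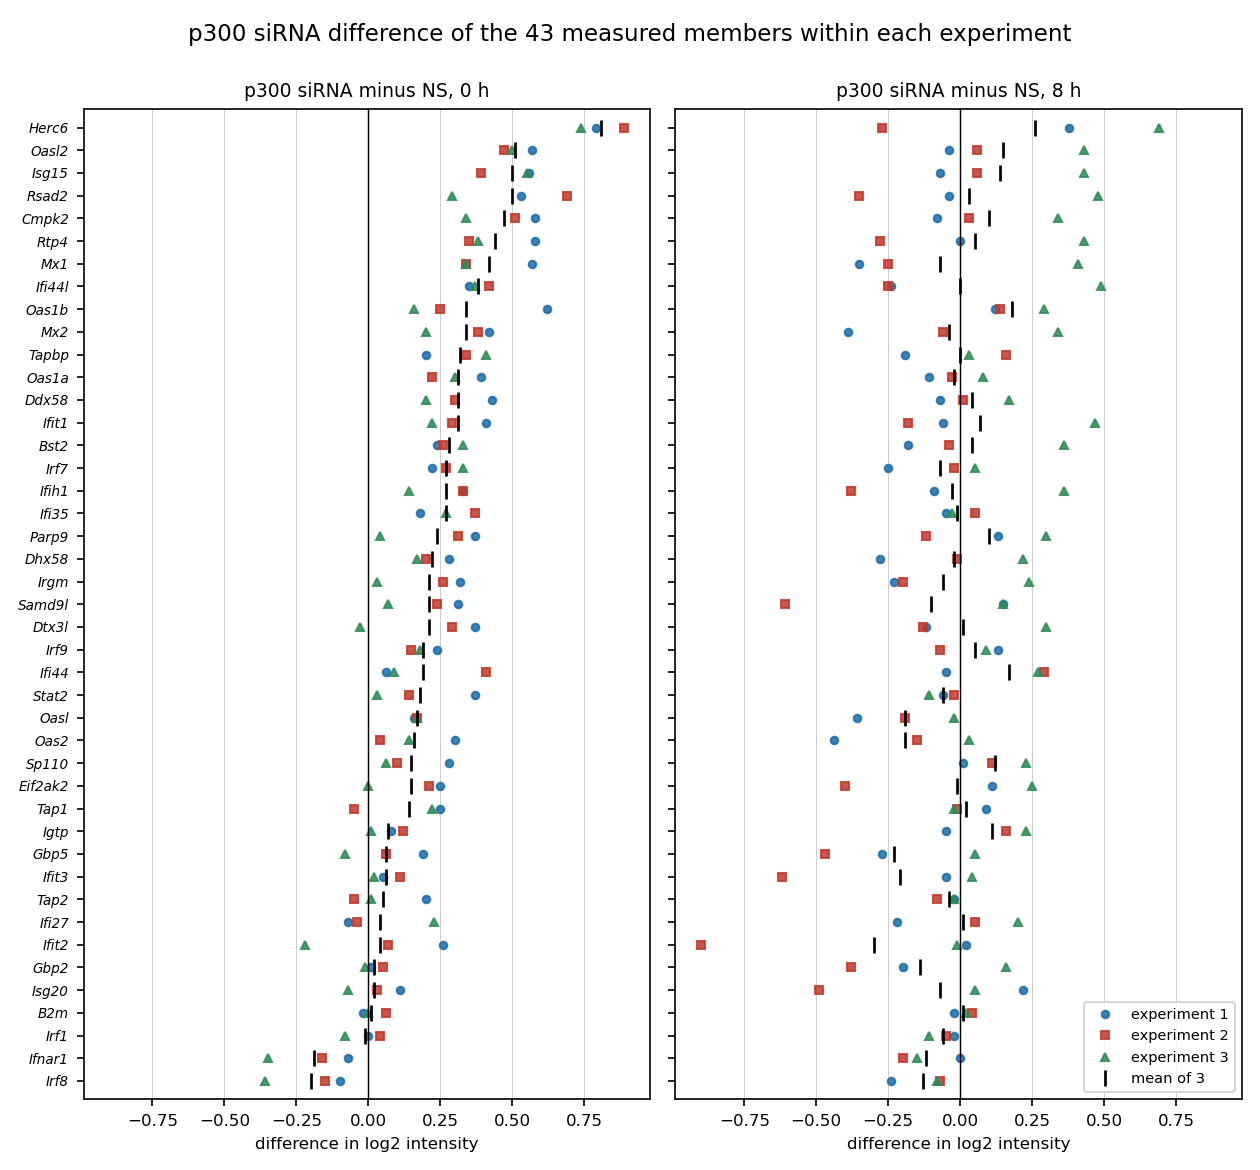
Difference in log2 intensity between p300kd and NS cells at 0 h (left) and after 8 h in Dox (right) for each measured member, with a point per experiment and a bar for their mean, ordered by the mean at 0 h. At 0 h 30 of 43 members are above 0 in all 3 experiments, and at 8 h 2 are.

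After 8 h in Dox, the p300 siRNA difference had no common direction. The median was −0.01 against 0.01 for all genes, with members between −0.30 and 0.26. None passed without the block, where 0.0483% of all genes passed, and none with it, where 3.14% did; the unadjusted p was under 0.05 for 0 and 1 members, and for 7.96% and 17.3% of all genes. Only 2 members were higher in all 3 experiments and 5 were lower, against 17.7% and 17.4% of all genes. The experiments differed: the median was −0.06 and −0.07 in experiments 1 and 2 and 0.20 in experiment 3, where 34 of 43 members were higher in p300kd cells. Ifit2 had the most negative mean, and read 9.09, 8.26 and 8.58 in p300kd cells against the NS values above, with −0.90 in experiment 2. Herc6 had the most positive mean with 0.38, −0.27 and 0.69. Without experiment 2 and with the block, 1 member passed, and the share of all genes in that fit is not given here. Macrophage markers were lower in p300kd cells at 8 h as well, with a mean of 8.29, 8.37 and 8.19 against 8.57, 8.73 and 8.46 in NS cells. With the block, 6 of 13 macrophage and 3 of 10 fibroblast markers fell there, where 344 of all 14506 genes fell.

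Averaged over both times, 33 of 43 members lay above 0, with a median of 0.11 against 0.01 for all genes. None passed without the block, where 1.25% of all genes passed. The unadjusted p was under 0.05 for 3 members without the block and 19 with it, and for 12.7% and 23.2% of all genes. Without the NS array of experiment 2 at 8 h 1 member passed, Herc6. With the block, 6 rose: Herc6 by 0.54, Oasl2 by 0.33, Isg15 by 0.32, Cmpk2 by 0.28, Oas1b by 0.26 and Ddx58 by 0.17, where 3.23% of all genes rose. Leaving out experiment 1, 2 or 3 with the block left 8, 4 and 2 that passed. The shares of all genes in the fits with an array or experiment left out are not given here. Over the same average, 4 of 13 macrophage markers fell without the block: Mrc1 by 0.51, Csf1r by 0.46, Ptprc by 0.40 and C1qb by 0.29. Of all 14506 genes, 148 fell there. With the block, 9 of 13 macrophage and 5 of 10 fibroblast markers fell, where 912 of all genes fell.

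Whether the drug response differed between p300kd and NS cells was tested by the interaction, the drug difference in p300kd minus that in NS cells. It lay below 0 for 40 of 43 members, with a median of −0.27 against 0.00 for all genes. The interaction is also the p300 siRNA difference at 8 h minus that at 0 h. The NS arrays at 0 h enter it, the siRNA difference at 0 h and the drug difference in NS cells, so these are not separate results. Members also varied together between experiments, so the signs of the 43 are not independent, here or at 0 h. No member passed without the block, as 0% of all genes did, or with it, again 0% of all genes. The unadjusted p was under 0.05 for 0 members without the block and 16 with it, and for 1.57% and 4.41% of all genes. In all 3 experiments 14 members were below 0 and 0 above, against 12.2% of all genes below. The median was −0.42 and −0.33 in experiments 1 and 2 and 0.05 in experiment 3, where 27 members were above 0. The lowest values were −0.54 in Herc6, −0.48 in Mx1, −0.47 in Rsad2 and −0.39 in Rtp4, with SEs from 0.354 to 0.719 without the block. Irf7 gave −0.47, −0.29 and −0.29 over the experiments and had the smallest adjusted p of the members with the block, 0.902. For Tap1, Gbp2, Irf9 and Ifnar1 the interaction was −0.12, −0.16, −0.14 and 0.08.

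**Figure D4:**
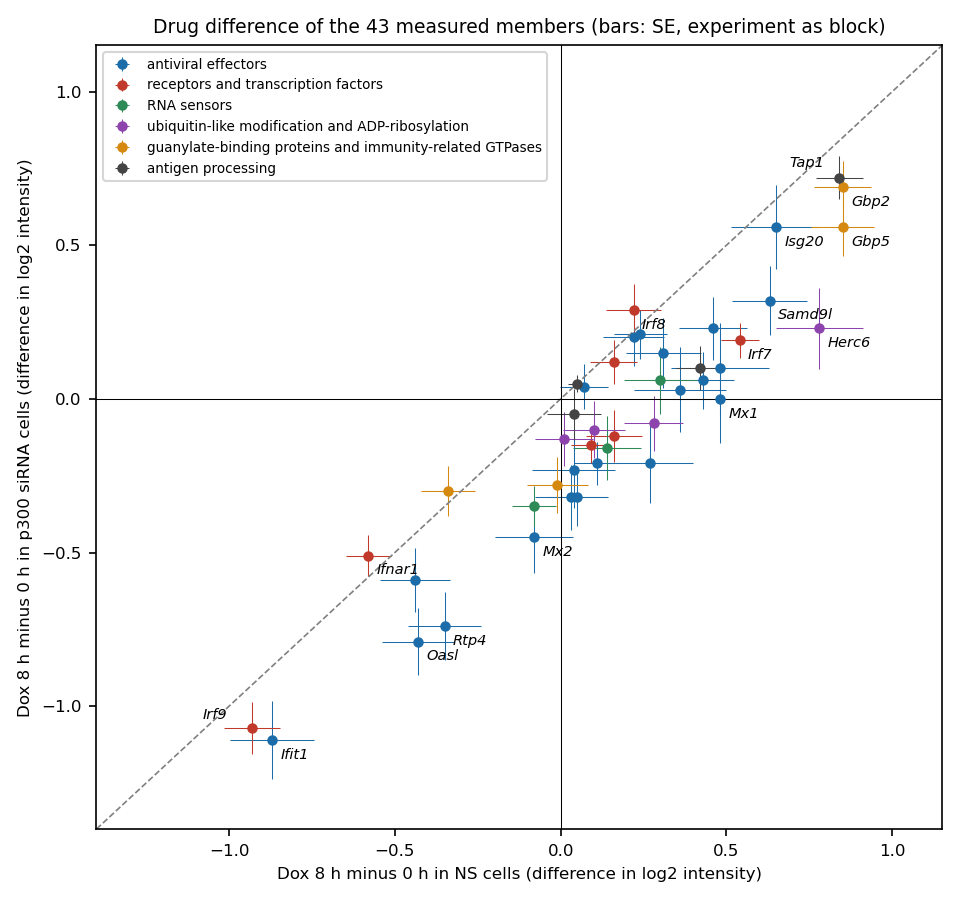
Difference in log2 intensity between 8 h in Dox and 0 h in NS cells (x axis) against that in p300kd cells (y axis) for the 43 measured members, coloured by role, with bars for the SE (experiment as block) and the dashed line marking equal differences. Gbp2 and Tap1 lie high and Irf9 and Ifit1 low on both axes, and 40 of 43 members lie below the line.

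Genes upstream of the members were taken from a list of 32 sensing and signalling genes, of which 25 were measured. Without the block 3 rose and 7 fell after Dox in NS cells (all genes 11.1% and 16.4%). In p300kd cells 2 rose and 7 fell (all genes 13.9% and 17.5%). With the block, 3 rose and 11 fell in NS cells (all genes 21.6% and 21.9%). In p300kd cells 3 rose and 10 fell with it (all genes 22.9% and 22.8%). Mavs, the mitochondrial adaptor of RIG-I and MDA5, fell by 0.87 in each (adjusted p = 1.14e-05 in NS cells). Trim25, the ligase that activates RIG-I, fell by 0.55 and 0.60, Irf2bp1 by 0.97 and 1.00, Stat3 by 0.50 and 0.59, Crebbp, the paralogue of p300, by 0.36 and 0.36, and Pias1, an inhibitor of STAT activity, by 0.57 and 0.54. Socs3, a feedback inhibitor of cytokine receptors, fell by 0.69 and 0.92. Tlr3, the endosomal receptor for double-stranded RNA, rose by 1.01 in NS (adjusted p = 1.21e-04) and 0.95 in p300kd cells. Socs1 and Ikbke rose in NS cells by 0.37 each and Jak1 in p300kd cells by 0.26. Ep300 differed by −0.34 in NS and −0.31 in p300kd cells after Dox (adjusted p = 0.0641 and 0.0782). It passed in both with the block (adjusted p = 0.00153 and 0.00249). With the p300 siRNA, Ep300 itself was the 1 gene of this list that passed at either time without the block. Usp18 had means of 11.35, 12.31 and 12.08 in experiments 1, 2 and 3, a span of 0.96.

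The interferon genes themselves gave low signals. Of 14 listed, 5 were measured, and Ifnb1, the gene of interferon beta, lay between 5.70 and 6.18 and Ifng between 5.18 and 5.41 over the 12 arrays. After Dox in p300kd cells Ifna4 rose by 0.29 (adjusted p = 0.0490), and no other passed in any comparison, in either fit. The means of Ifnb1 in experiments 1, 2 and 3 were 5.92, 5.86 and 5.97, a span of 0.11. No RMA value is at 0, and no detection call was used.

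Of 42 other interferon-induced effectors, 31 were measured. After Dox, 3 rose and 3 fell in NS cells (all genes 11.1% and 16.4%). In p300kd cells 2 rose and 3 fell (all genes 13.9% and 17.5%). Adar, which edits double-stranded RNA, fell by 0.68 and 0.80, Apol9a by 0.74 and 0.80, and Plscr1, a phospholipid scramblase, by 0.39 and 0.42. Ifi30, a lysosomal thiol reductase of antigen processing, rose by 0.47 and 0.51, Trex1 by 0.34 and Ifitm2 by 0.23 in NS cells, and Tdrd7 by 0.42 in p300kd cells. With the block, 16 rose and 4 fell in NS cells (all genes 21.6% and 21.9%), and 4 rose and 8 fell in p300kd cells (all genes 22.9% and 22.8%). At 0 h, 0 passed for the p300 siRNA without the block, where 0.0207% of all genes passed. With the block 2 rose, where 0.696% of all genes rose. These were Uba7, the activating enzyme of ISG15, by 0.46 (adjusted p = 0.00909 with the block) and Mov10 by 0.43 (0.00871).

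Of 40 further antigen processing and presentation genes, 35 were measured. After Dox 7 rose and 0 fell in NS cells (all genes 11.1% and 16.4%), and 6 rose and 0 fell in p300kd cells (all genes 13.9% and 17.5%). The class I gene RT1-CE5 rose by 0.61 and 0.60, the class I-like Mr1 by 0.57 and 0.56, RT1-DMa, which loads class II, by 0.53 and 0.37, and Fcgrt, the neonatal Fc receptor, by 0.31 and 0.25. In NS cells the immunoproteasome genes Psmb9 and Psmb10 rose by 0.53 and 0.30 and the trimming peptidase Erap1 by 0.33, and in p300kd cells Cd1d1 rose by 0.56 and Canx by 0.17. Probes of class I genes may share sequence with their near-identical copies, so that the RT1 values are uncertain as to the copy. With the block, 16 rose and 0 fell in each kind of cell. The shares of all genes were then 21.6% and 21.9% in NS and 22.9% and 22.8% in p300kd cells. Cd74, the class II invariant chain, fell by 0.36 with the p300 siRNA averaged over both times (adjusted p = 0.0400), the 1 gene of this list that passed there without the block. Of all genes 1.25% passed there. Endothelial Kdr fell by 0.92 and 0.98 and Cdh5 by 0.40 and 0.26 after Dox, while 0 of 9 endothelial markers rose without the block. With the block, Flt1 rose by 0.47 and 0.48 and Egfl7 by 0.22 in NS cells. In that fit 4 fell in NS cells (Kdr, Cdh5, Tek and Pecam1) and 3 in p300kd cells (Kdr, Cdh5 and Tek). For these and the markers below, the shares of all genes with the block are those just given. Of 10 fibroblast markers Pdgfra fell by 0.79 and 0.88, Thy1 rose by 0.49 and 0.51, and Fap rose by 0.40 in p300kd cells. Of 13 macrophage markers Csf1r fell by 0.54 and 0.66, and in p300kd cells Ptprc fell by 0.37 and C1qa rose by 0.25. Cd3g, of 8 lymphocyte and NK cell markers, rose by 0.20 in p300kd cells, and 0 of 13 myocyte markers passed without the block. With the block, 1 myocyte marker rose in NS cells, and 4 rose and 1 fell in p300kd cells. In that fit 2 macrophage markers rose and 1 fell in NS cells, and 4 rose and 2 fell in p300kd cells. Of the fibroblast markers 1 rose and 1 fell in NS cells, and 4 rose and 1 fell in p300kd cells. The part of cell content in the drug differences was not tested.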

How the data were processed

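Total RNA of 12 cultures, 4 groups of 3, was measured on Affymetrix whole-transcript arrays, and titles gave the group and replicate number. The authors deposited intensity values, 1 per probe set (8.05 to 25315), made with Expression Console 1.1 and RMA per the submitters' processing notes. How they came to be on a linear scale is not given in the sources used here, so the linear scale is inferred from their range; log2 values were computed from them.

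Of 29214 probe sets, 15310 had 1 gene symbol, 323 several and 13581 none, and those with other than 1 were left out. The brightest probe set of a gene was kept, which gave 14506 genes. A RefSeq table of GRCr8, used for names and promoters, held the Entrez identifiers of 14480. A model of 4 group means was fitted to all genes with limma 3.58.1 in R 4.3.3 (lmFit, eBayes with trend, two-sided) for 6 comparisons, with Benjamini-Hochberg adjustment over all genes and a threshold of 0.05. The script was tested on simulated data.

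Replicate numbers were checked as pairs: deviations from the group means correlated with a median r of 0.504 over the 18 pairs of arrays that share a number across groups (0.172 to 0.689), other pairs −0.271, and 12 of 12 arrays lay closest to their own number. The design text names 3 experiments, so the number is called the experiment, and a fit with it as a block was run beside each comparison. The labels do not say how the cultures of an experiment were made, so p-values measure the spread between these cultures, and the number of arrays sets how precise they are. Other alternatives were a random effect of the experiment, a fit of the compared groups alone, a filter on dim genes, other scalings, eBayes settings and probe set rules, and each experiment and array left out.

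The members and the further lists were chosen with earlier results of these data known. Values per array are given for every member that passed without the block in any comparison and, of the members that passed in none, for up to 3 per comparison with the largest difference; Irf7 and Tapbp were added after their values were seen. Of the further lists, every gene that passed and up to 3 others may be named. Promoter windows were searched with Python 3.11.15.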

Additional observations from a re-analysis of the deposited data

How the results depend on the processing

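Each comparison of 2 groups was repeated under 28 alternatives, 18 of which left out arrays, and the averaged and interaction comparisons under 27. The 4 that combined the replicate block with another choice, or repeated the count of signs, were chosen after seeing the data. Counts are of members that passed, and where given, the share of all genes that passed in the same fit follows in parentheses. Counts given as a range have no share beside them. With Dox in NS cells the count was 6 (27.5%), and it became 25 (43.5%) with the experiment as a replicate block, 15 (39.6%) with the experiment as a random effect, 13 (38.8%) with arrays centred on their median and 34 (54.4%) with both the block and centring. Leaving out an experiment or an array gave 4 to 10, and leaving out experiment 1, 2 or 3 with the block 19 (36.3%), 17 (37.6%) and 22 (31.9%). With Dox in p300kd cells the count of 5 (31.4%) became 22 (45.8%) with the block, 11 (43.2%) with the random effect and 24 (57.8%) with block and centring, with 3 to 8 on leaving out an experiment or array and 16 to 20 with the block. For the p300 siRNA at 0 h the count of 0 (0.0207%) became 9 (2.69%) with the block, 1 (0.862%) with the random effect and 10 (2.97%) with block and centring, and 2 to 5 on leaving out an experiment with the block. At 8 h it stayed 0 except for the block without 1 experiment, which gave 0 to 1. For the average of both times it was 6 (9.51%), 1 (5.63%) and 8 (10.0%) in these 3 fits, then 0 to 1 on leaving out arrays and 2 to 8 with the block. The interaction gave 0 under each of these. The count of 30 members higher at 0 h in all 3 experiments was 31 with centring and 31 with quantile normalization. The mean of probe sets could not change the 30, since each measured member has 1 probe set. Leaving out dim genes changes no sign and left 25 of 36. The values that follow are the lowest and highest over the left-out experiments and arrays. Of 1723 single gene values under alternatives, 7 turned in direction, none of which had passed: with Dox in NS cells Mx1 (−0.05 without the NS array of experiment 2 at 8 h, to 0.84), Isg15 (−0.03 without NS, experiment 1, 0 h, to 0.51) and Rtp4 (−0.77 to 0.03 without NS, experiment 1, 8 h); with Dox in p300kd cells Oas1a (−0.49 to 0.10) and Irgm (−0.48 to 0.01), both without p300kd, experiment 1, 8 h, and Irf7 (−0.10 without p300kd, experiment 1, 0 h, to 0.50); and at 0 h Oas1a (−0.02 without NS, experiment 1, 0 h, to 0.59). The cause of these changes was not tested.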
